A study of Rattus norvegicus with 21 samples.

Results

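SHAM rats of the Zucker Diabetic Sprague Dawley strain (ZDSD), which become diabetic, were compared with healthy Sprague Dawley rats (SD). The comparison was taken from renal cortical RNA-seq of 21 rats at 37 weeks of age. The condition labels gave 6 SD rats and 9 SHAM rats, and SHAM libraries with a total under 1000000 counts (rats 343 and 348, with 121511 and 101534 counts) were left out, so that 13 of the 21 rats were compared. SD rats were healthy male controls of the outbred strain and were not operated. SHAM rats were male ZDSD rats that received insulin degludec before surgery and then a laparotomy, and that ate Purina chow freely. A further 6 ZDSD rats (DMT) had the same surgery and then dietary restriction with fenofibrate, metformin, ramipril, rosuvastatin and liraglutide. They are labelled medical bypass and are given here only as values beside those of SD and SHAM rats. The labels mark the SD and SHAM libraries as re-analysed from an earlier deposit, and the DMT libraries not.

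The renal cortex holds the glomeruli, which filter the blood, and most of the proximal tubule, which reabsorbs glucose, sodium and amino acids at a high cost in energy. In diabetic kidney disease the glomerular filter leaks albumin, the tubules carry an increased load of glucose, and inflammation and fibrosis follow. The ZDSD rat becomes obese and diabetic with an intact leptin system, unlike the Zucker fatty strain from which it descends in part. The SHAM group therefore differed from the SD group in strain, diabetes, insulin and surgery, and the parts of these in any difference below cannot be told apart. The labels give no measure of diabetes for the single rat. The paper divided untreated ZDSD rats into a mild and a severe phenotype by their urinary metabolites.

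Total counts were 20896370 to 27597901 in SD rats and 14502127 to 23995113 in the 7 SHAM rats, and 17146 to 17742 genes had at least 1 count in these libraries. A count of 3 was worth 0.109 to 0.207 CPM (fragments per 1000000 counted), a floor that covers counting error only. This floor is unscaled, while the CPM values of genes below were also scaled by the TMM factor of each library. In SD rats 6.14% to 7.26% of the library came from its top 10 genes, and in SHAM rats 4.79% to 6.36%. Genes carry an Ensembl identifier and no symbol in the files, and 0 of 26404 identifiers could be paired with a symbol here. Genes are therefore described by position in the rn5 build, by length and by level. Cell type markers of the cortex and lists of kidney pathways could not be checked for the same reason.

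Renal cortex of SHAM rats differed from that of SD rats at 2681 of 14664 genes tested (18.3%), with 1515 genes higher (10.3%) and 1166 lower (7.95%) in SHAM rats. These genes had an adjusted p-value under 0.05 and a fold-change of at least 1.3 (edgeR quasi-likelihood test, Benjamini-Hochberg adjustment). Most differences were modest, with a median absolute log2 fold-change of 0.66 among the called genes. A change of at least 2-fold was found for 334 higher and 294 lower genes (4.28% of genes tested). At 4-fold or more there were 56 higher and 75 lower genes (0.893%), and at 8-fold or more 16 higher and 33 lower genes. Higher genes were thus the majority of all calls, and lower genes the majority of changes of 4-fold or more. With no fold-change threshold the majority was lower, with 2500 higher and 2631 lower genes. Over all genes tested the median log2 fold-change was 0.01, with quartiles at -0.17 and 0.20. In bulk tissue, fewer cells of a type and less RNA per cell cannot be told apart.

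**Figure D1:**
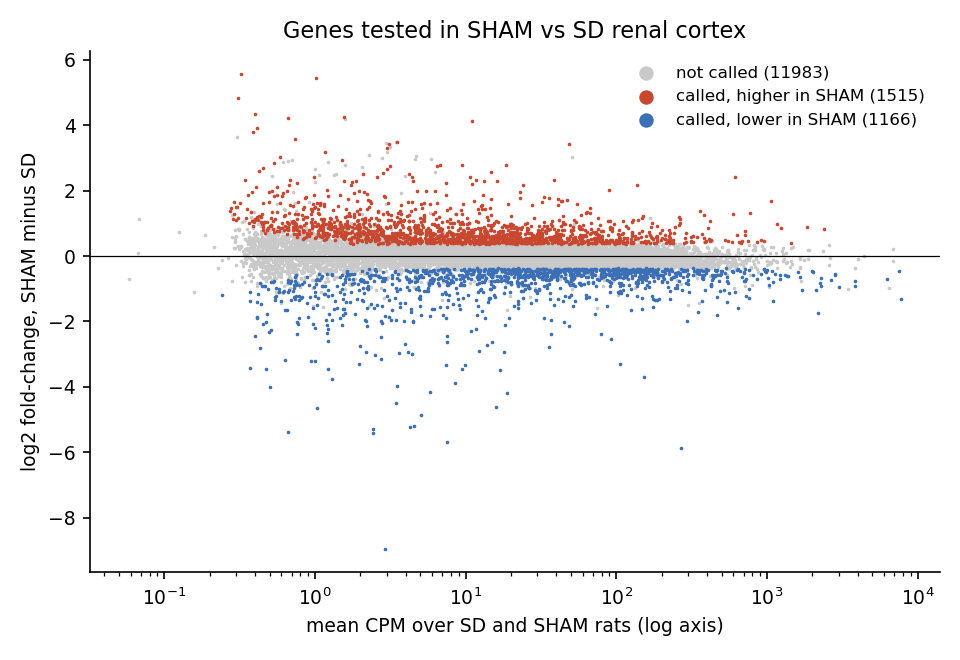
Log2 fold-change of SHAM relative to SD rats against mean CPM over the 13 rats (log axis) for the 14664 genes tested, 1 point per gene. The 1515 genes called higher are red and the 1166 called lower are blue, and the largest changes lie below 0.

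The direction of the called genes moved with their level. Genes were divided into quartiles by mean CPM over the 13 rats, a scale that is not divided by transcript length. In the lowest quartile (up to 5.81 CPM), 631 genes were higher and 289 lower, and 25.1% of the quartile was called. In the next quartile 438 were higher and 274 lower. The third held 229 higher and 215 lower genes, with 12.1% called. In the top quartile, from 62.9 to 7774 CPM, the balance was the opposite, with 217 higher and 388 lower. The median log2 fold-change over all genes of a quartile passed from 0.14 in the lowest to -0.07 in the top quartile. With DESeq2 size factors the top quartile held 219 higher and 386 lower genes, with upper-quartile factors 250 and 341, and with libraries thinned to one total 220 and 386. The lowest quartile held more higher than lower genes under each of these scalings, with 520 and 235 in the thinned libraries. Other filters decide which genes of low level are tested, and the quartiles were not recounted under them. Over all levels, 1585 genes were higher and 1265 lower with a filter of at least 1 count. With at least 10 counts in every library they were 1330 and 992.

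The 20 called genes of highest CPM, chosen after their values were seen, showed this at its plainest. Of these genes, at 1667 to 7774 CPM, 18 were lower and 2 higher in SHAM rats, with log2 fold-changes from -1.75 to 0.88. Together the 18 lower genes had 64760 to 89564 CPM in SD rats and 24947 to 57305 CPM in SHAM rats, and the groups did not overlap. As these genes were chosen for being called lower, a lower sum in SHAM rats follows from the choice. Taken singly, 13 of the 20 genes were free of overlap, beside 33.2% of all called genes. In DMT rats the sum of the 18 lower genes was 53801 to 62070 CPM. Of the same 20 genes, 18 were lower and 2 higher under each of the other scalings (DESeq2 size factors, upper-quartile factors and thinned libraries). The TMM scaling factors that stand behind these values were 0.904 to 1.01 in SD and 1.01 to 1.13 in SHAM rats.

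The called gene of highest CPM is found at chromosome 5, positions 137989329 to 138000280 (reverse strand), and has 13 exon blocks that cover 2017 bases. Its level was 8651 CPM in the lowest SD rat, 11026 CPM at the SD median and 14458 CPM in the highest SD rat. In SHAM rats it was 2402 CPM (rat 333), 4670 CPM at the median and 6092 CPM (rat 340). Every SHAM rat was below every SD rat. The mean was 11457 ± 2491 CPM in SD rats (SD, n=6) and 4616 ± 1310 CPM in SHAM rats (SD, n=7), a log2 fold-change of -1.31 (standard error 0.18, adjusted p=2.76e-05, edgeR quasi-likelihood test). In DMT rats it was 12343 to 13957 CPM, above all SHAM rats and within the range of the SD rats.

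The calls held across most rats but not all. Of the 2681 called genes, 889 showed no overlap between groups, 444 of them higher and 445 lower in SHAM rats. Over all genes tested the groups did not overlap for 1262 genes (8.61%), with all SHAM rats higher for 4.04% and lower for 4.57% of genes tested, so 373 such genes were not called. Among the calls, 38.2% of lower genes and 29.3% of higher genes were free of overlap. A further 741 called genes had 6 of the 7 SHAM rats outside the range of the SD rats, and at least 5 rats lay outside it for 78.0% of the calls. For 14 called genes no SHAM rat lay outside the SD range in the direction of the change. Among the 131 genes changed at least 4-fold, 77 did not overlap. No gene was at 1 CPM or more in every rat of one group and under 0.2 CPM in every rat of the other (0 genes in either direction).

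**Figure D2:**
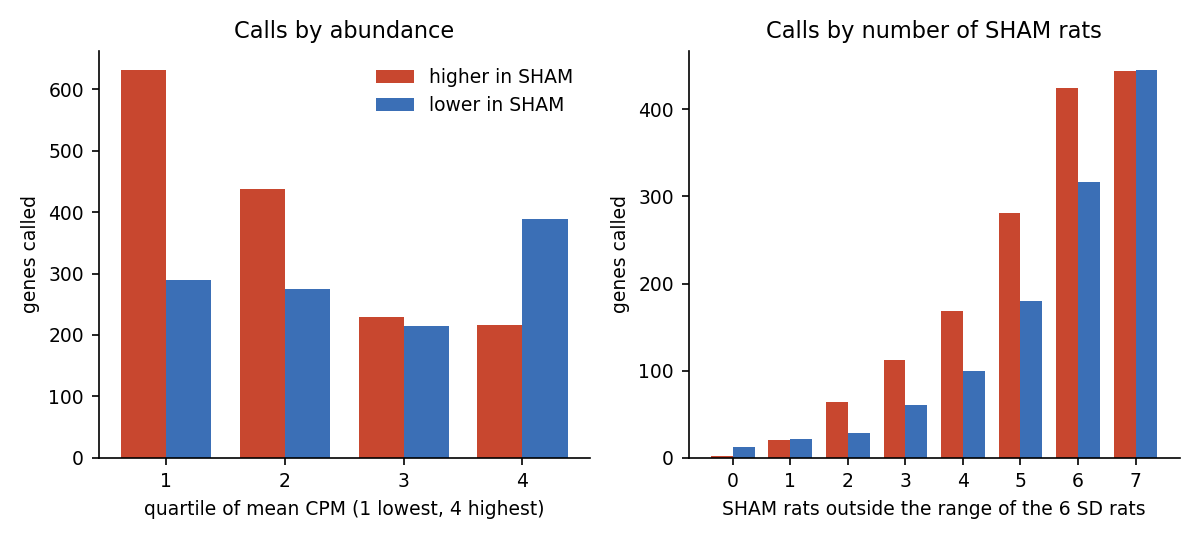
Numbers of genes called higher (red) and lower (blue) in SHAM rats by quartile of mean CPM (left) and by how many of the 7 SHAM rats lay outside the range of the 6 SD rats in the direction of the change (right). Higher genes prevail in the lowest quartile (631 against 289) and lower genes in the top quartile (217 against 388), and 889 genes had all 7 SHAM rats outside the SD range.

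Over all genes, the rats of both groups were further apart than the spread within groups. The pseudo-F ratio of distances in log2 CPM was 6.94 (p=0.000583, one-sided exact permutation test over 1716 splits), the smallest p-value that these numbers of rats allow. The first principal component held 45.8% of the variance. SD rats lay between -42.4 and -19.8 on it, and SHAM rats between -2.67 and 62.0. Within the SHAM group the rats were widely spaced, with rat 340 at -2.67, rat 321 at 9.69, rats 317, 334, 311 and 315 between 21.2 and 38.2, and rat 333 at 62.0. The spread between rats, as the standard deviation of log2 CPM, was larger in SHAM than in SD rats for 58.4% of genes tested. The share was 60.5% among genes called higher and 65.4% among genes called lower. Median spread over the lower genes was 0.32 in SHAM and 0.24 in SD rats, and over the higher genes 0.32 and 0.29. Total counts ran lower in SHAM rats, and the part of counting error in this spread was not tested.

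Each rat was then left out of the fit in turn and placed by the genes called without it. The position was 0 at the mean of the remaining SD rats and 1 at the mean of the remaining SHAM rats, and a gene counted for the rat's own group when it lay on that side of the midpoint. SHAM rats 311, 315, 317 and 333 had 87.8% to 91.9% of the called genes on the SHAM side. Rats 334 and 321 followed with 78.9% and 73.6%. Rat 340 had 48.5%, at a median position of 0.48, midway between the groups, and 83.2% of the genes lay on the SHAM side of the SD mean. That last share was 96.4% or more in the other SHAM rats, and 76.8% and 74.6% in SD rats 353 and 356 when they were left out. Rat 333 lay beyond the other SHAM rats, at a median position of 1.52. Among SD rats the share was 77.0% or more in 5 rats and 61.5% in rat 353, whose median position was 0.36. When the genes were limited to changes of at least 2-fold, rat 353 was at 78.6%, while rat 340 was at a median position of 0.55.

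**Figure D3:**
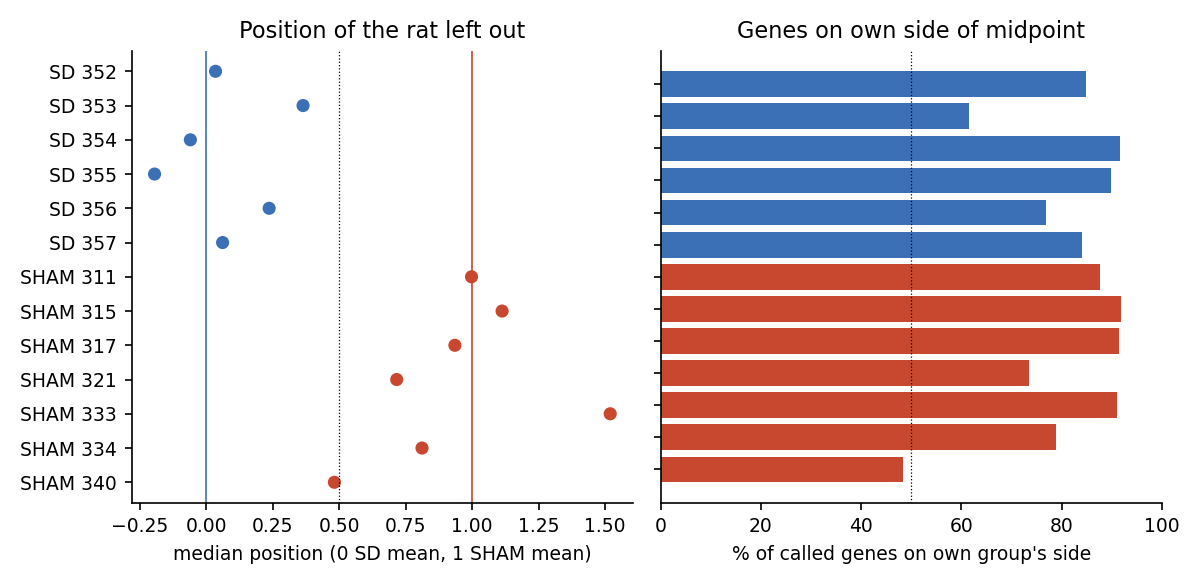
Placement of each of the 6 SD rats (blue) and 7 SHAM rats (red) by the genes called without it, as the median position from the SD mean (0) to the SHAM mean (1) on the left, and as the percentage of those genes on its own group's side of the midpoint on the right. SHAM rat 340 lies at 0.48 and SHAM rat 333 at 1.52, and SD rat 353 is the SD rat nearest to the SHAM group at 0.36.

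Rat 340 had 16685661 counts, and its 10 genes with the most counts took 6.36% of them, a share within the range of the SD rats. In the other SHAM rats that share was 4.79% to 5.62%. Rat 333 was the shallowest library, with 14502127 counts, the lowest share (4.79%) and the highest TMM factor (1.13). The part of these values in the positions of both rats was not tested. Without rat 340, 3070 genes were called, and without rat 333, 2198. Of the 2681 genes, 1851 (69.0%) were called with all rats and again without each of the 13 rats in turn, and 1019 of these were higher and 832 lower in SHAM rats.

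The largest decreases were found for a pair of genes on chromosome 1. ENSRNOG00000046170 is found at chromosome 1, positions 13504948 to 13508160 (reverse strand), with 7 exon blocks covering 1050 bases. It was at 194 CPM in the lowest SD rat, 336 CPM at the SD median and 1985 CPM in the highest SD rat (rat 353), compared with 5.58, 8.53 and 15.8 CPM at the same points of the SHAM group. All SD rats were more than an order of magnitude above all SHAM rats, and rat 353 stood far above the other SD rats. The log2 fold-change for SHAM vs SD was -5.88 with a standard error of 0.54 (adjusted p=3.59e-07, edgeR quasi-likelihood test). Without rat 353 it was -4.92. DMT rats had 4.54 to 12.5 CPM, so both groups of ZDSD rats were low.

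ENSRNOG00000020057 is found at chromosome 1, positions 82787111 to 82789825 (reverse strand), with 5 exon blocks covering 910 bases. It was detected in every SD rat, at 0.830 CPM in the lowest, 3.53 CPM at the median and 24.1 CPM in the highest (rat 357). In SHAM rats there was 1 count in all, in rat 334, and 0 in the other 6, while SD rats held 791 counts together. In DMT rats there was likewise 1 count in 1 rat. Fragments counted for this gene were thus present in all SD rats and nearly absent from ZDSD rats at this depth. The pooled level was 745-fold higher in SD than in SHAM rats, with an exact 95% interval for counting error of 133 to 29461. Rat 357 alone held 470 of the 791 counts, and without it the pooled level was 354-fold higher (63.1 to 14030). The difference passed the test with all rats (adjusted p=6.31e-06, edgeR quasi-likelihood test). However, the gene passed the expression filter through SD rats only. The fitted log2 fold-change was -8.95, and it was -7.78 without SD rat 357 and -10.14 without SHAM rat 334, so its size depends on these rats and on the 1 count.

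By the same ranking, the 2 largest increases were of genes at low levels. ENSRNOG00000015666 is found at chromosome 19, positions 32551493 to 32622091 (forward strand), with 30 exon blocks covering 4541 bases. SD rats had at most 2 counts each, under the floor of 3 counts, and 5 counts together. SHAM rats had 0.723 CPM in the lowest rat, 1.43 CPM at the median and 3.94 CPM in the highest (rat 340), with 258 counts together. No SHAM rat overlapped the SD rats, as the choice of genes required. The log2 fold-change for SHAM vs SD was 5.45 with a standard error of 0.64 (adjusted p=6.62e-06, edgeR quasi-likelihood test). DMT rats had 0.541 to 2.11 CPM.

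ENSRNOG00000042788 is found at chromosome 1, positions 244187973 to 244205248 (reverse strand), with 6 exon blocks covering 759 bases. SD rats again had at most 2 counts each and 8 together. SHAM rats had 0.738, 1.02 and 2.06 CPM at the lowest, median and highest, with 172 counts together. The log2 fold-change for SHAM vs SD was 4.22 with a standard error of 0.43 (adjusted p=1.18e-06, edgeR quasi-likelihood test). DMT rats were at 0.245 to 0.832 CPM, between the SD and most SHAM rats. In both increases the SD level rests on a few counts, so that the size of the change is less certain than its direction. Both genes passed the expression filter through ZDSD rats only, and lack of overlap was a condition of their choice.

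**Figure D4:**
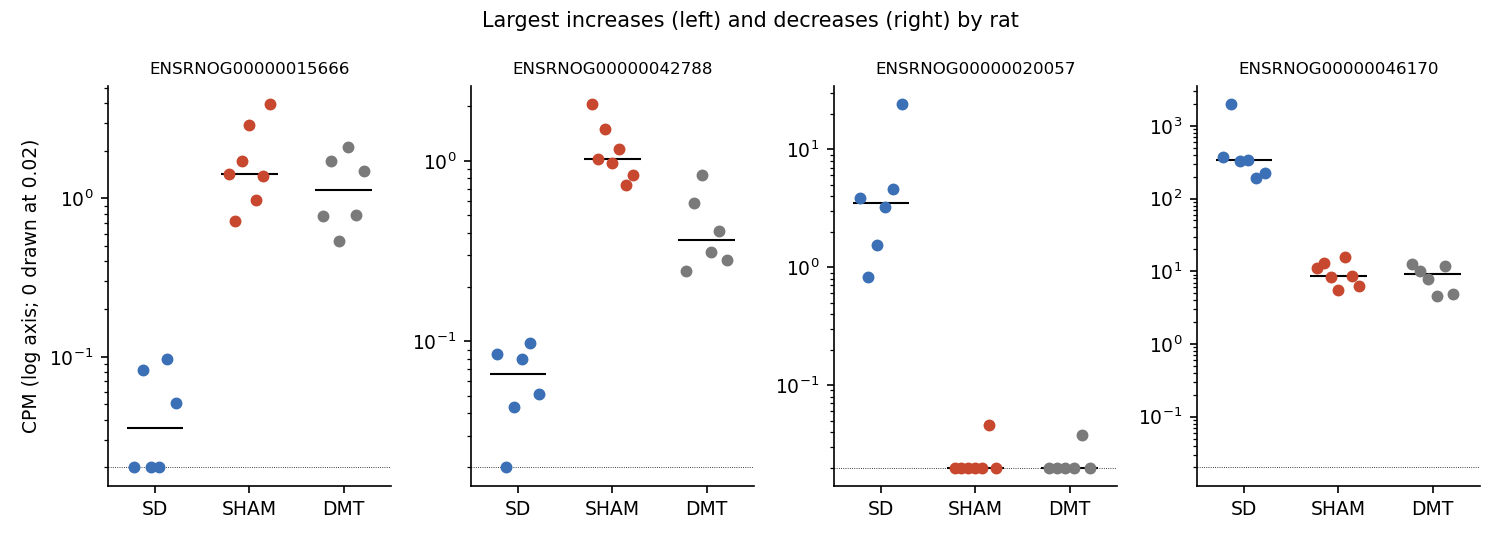
CPM in each rat on log axes (a value of 0 is drawn at 0.02) for the 2 largest increases (left pair) and the 2 largest decreases (right pair) in SHAM (red) relative to SD rats (blue), with DMT rats in grey and a black line at each median. Each panel has its own axis, and SHAM and SD rats do not overlap in any of the 4 panels, as the genes were chosen from those without overlap.

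Called genes were spread over the genome. Across the 21 chromosomes with at least 100 genes tested, the share called ran from 13.5% on chromosome 12 to 22.2% on chromosome 17, around the 18.3% over all genes. On chromosome 16, 47 of the 62 called genes were higher in SHAM rats, and on chromosome 6, 63 of 110 were lower. Both chromosomes were picked as the extremes of direction, beside 56.5% of all calls that were higher. In windows of 2 Mb with at least 10 genes tested (553 windows), the median share called was 16.7%, and 35 windows held no call. In 6 windows more than 50% of the genes were called. The windows described next were chosen after their values were seen, as the 4 with the highest share called and the 2 others with the most changes of at least 4-fold.

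On chromosome 9 from 2000001 to 4000000, 8 of 10 genes tested were called, 6 of them lower. The 6 lower genes together had 1258 CPM in the lowest SD rat (rat 353), 2175 CPM at the SD median and 2521 CPM in the highest. In SHAM rats their sum was 308 (rat 333), 970 and 1266 CPM (rat 340) at the same points. The groups met at their edges, with SD rat 353 just below SHAM rat 340. Most of this sum came from a gene of 5 exon blocks from 3191457 to 3207088, at 1651 CPM on average in SD and 633 CPM in SHAM rats (log2 fold-change -1.38, standard error 0.27, adjusted p=0.000803, edgeR quasi-likelihood test), whose groups did not overlap.

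On chromosome 1 from 100000001 to 102000000, 11 of 38 genes tested were called, and 4 of them changed at least 4-fold. Among them were 6 lower genes of like structure, each with 5 exon blocks and 780 to 873 bases, with log2 fold-changes from -5.37 to -1.03 and adjusted p-values up to 1.68e-05 (edgeR quasi-likelihood test). They were picked as lower calls with 5 exon blocks, and genes of this structure that were not called were not counted. None of the 6 overlapped between groups, beside 38.2% of all genes called lower and 8.61% of all genes tested that were free of overlap. The 4 of them under 20 CPM together had 20.9 to 54.4 CPM in SD rats, and 0.707 to 2.92 CPM in SHAM rats. The more abundant 2 together had 1033 to 1664 CPM in SD and 447 to 649 CPM in SHAM rats. DMT rats were at a median of 2.56 CPM for the first sum and had 474 to 657 CPM for the second, below all SD rats in both. As genes of like structure side by side may share sequence, fragments that fit several of them were not counted, and the split of counts among the 6 is uncertain.

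On the same chromosome from 196000001 to 198000000, 12 of 31 genes tested were called, 8 of them lower. The 8 lower genes together had 7077 to 8378 CPM in SD rats and 2278 to 7037 CPM in SHAM rats, with rat 340 at 7037 CPM and rat 333 at 2278 CPM. A gene of 11 exon blocks in this window, from 196108659 to 196124218, fell from a mean of 302 to 23.2 CPM (log2 fold-change -3.71, standard error 0.54, adjusted p=6.26e-05, edgeR quasi-likelihood test). SD rats ranged from 13.2 to 761 CPM and SHAM rats only from 19.5 to 28.9 CPM, so that the groups overlapped. A gene of 31 exon blocks from 197000155 to 197106548 rose in the same window, from 0.560 to 1.18 CPM in SD rats to 1.91 to 10.8 CPM in SHAM rats (log2 fold-change 2.67, standard error 0.35, adjusted p=1.90e-05, same test).

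On chromosome 14 from 46000001 to 48000000, 9 of 13 genes tested were called, 8 of them higher, with a median log2 fold-change of 1.63 over all 13. The 8 higher genes summed to 7.90 to 32.7 CPM in SD rats and 35.0 to 141 CPM in SHAM rats, and to 20.5 to 245 CPM in DMT rats. The DMT sum was carried by 1 gene of 1092 bases, with a mean of 110 CPM in DMT, 11.7 CPM in SHAM rats and at most 3.28 CPM in SD rats. The other 7 genes together had 5.21 to 29.6 CPM in SD, 25.2 to 136 CPM in SHAM and 5.75 to 13.1 CPM in DMT rats, and each of the 7 had a lower mean in DMT than in SHAM rats. Only 1 of the 8 genes was itself free of overlap, a gene of 8 exon blocks from 46814998 to 46857206 that rose from 3.46 to 10.9 CPM in SD to 12.6 to 45.5 CPM in SHAM rats (log2 fold-change 1.75, standard error 0.28, adjusted p=0.000158, same test). Another 5 of the called genes are 49 to 74 bases long, and 3 of the 8 overlap another gene on the same strand. Fragments that fall on 2 such genes of one strand were not counted for either, so the counts of short and nested genes are uncertain.

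Chromosome 17 held the remaining windows. From 58000001 to 60000000, 17 of 30 genes tested were called, 15 of them higher, and from 44000001 to 46000000, 18 of 33 were called, 13 of them higher. The 15 higher genes summed to 62.3 to 87.9 CPM in SD rats and 79.9 to 174 CPM in SHAM rats, where only rat 340 fell within the SD range. The 13 higher genes of the other window summed to 76.6 to 95.1 CPM in SD and 109 to 165 CPM in SHAM rats, with no overlap, and to 110 to 122 CPM in DMT rats. The direction of the majority in each of these windows was the same under DESeq2 size factors, upper-quartile factors and thinned libraries.

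**Figure D5:**
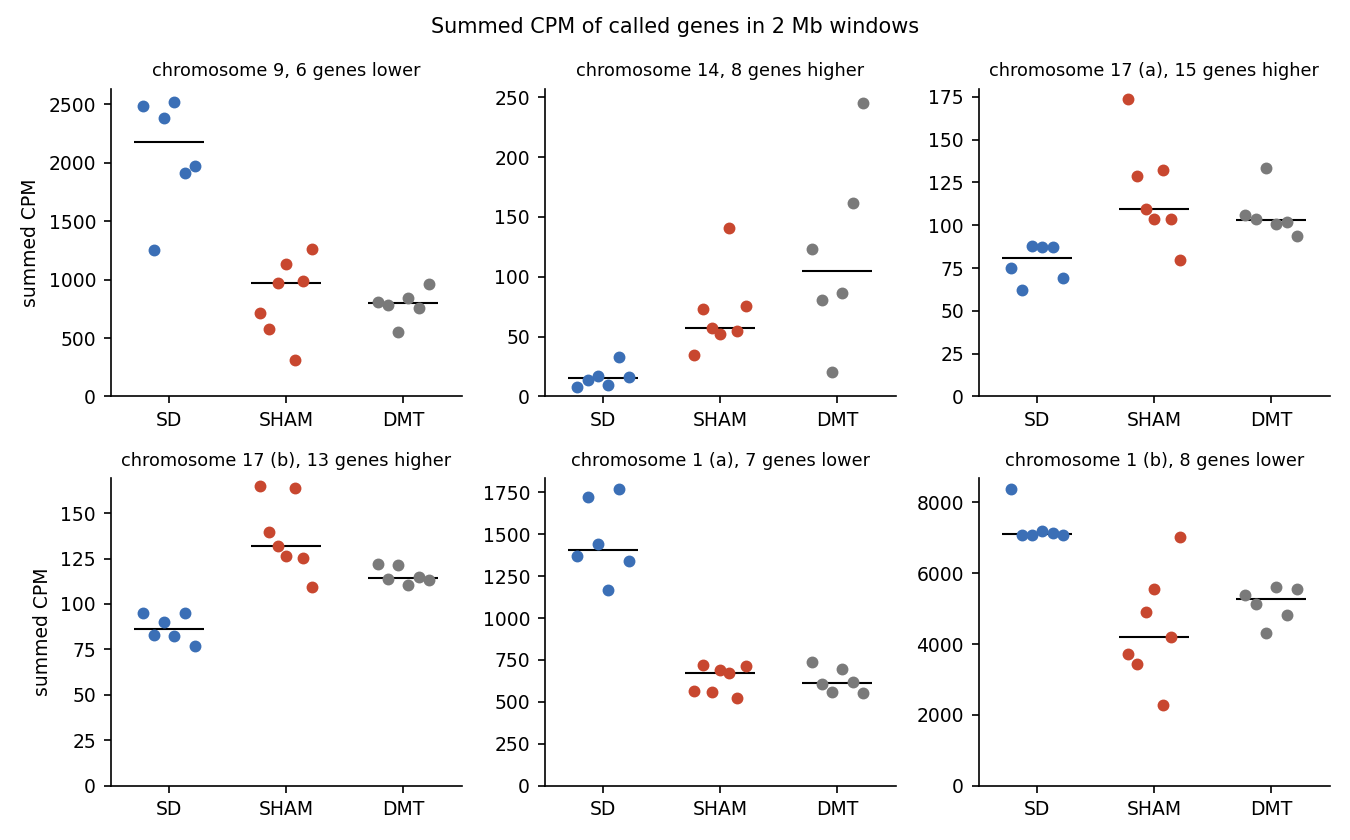
Summed CPM per rat of the genes called in the prevailing direction in 6 windows of 2 Mb, with a line at each median. On chromosome 17, (a) is the window with 15 higher genes and (b) the window with 13, and on chromosome 1, (a) is the window with 7 lower genes, and (b) the window with 8. SD (blue) and SHAM rats (red) do not overlap in chromosome 14, chromosome 17 (b) and both chromosome 1 windows, and the genes were chosen by this same difference.

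A set of single-exon genes of shared length, most of them on chromosome 17, was also counted. Exon lengths of 312, 381, 393 and 411 bases were each shared by at least 8 single-exon genes tested, 36 genes in all, of which 26 lie on chromosome 17. Of these 36 genes, 18 were higher and 1 lower in SHAM rats, with a median log2 fold-change of 0.52. Of the 19 called genes, 17 lie on chromosome 17 and were already counted in the chromosome 17 windows above. The set is therefore largely the same result as those windows. Among the other 803 single-exon genes, 76 were higher and 74 lower (median -0.03), and over all genes 10.3% were higher. The called genes of shared length were spread over all 4 lengths, with 3 of 8 higher at 312 bases, 2 of 8 at 381, 6 of 10 at 393 and 7 of 10 at 411. Their levels were low, with a median of 2.60 CPM. In 6 of the 36 genes (16.7%) the rats of both groups did not overlap, beside 8.61% of all genes tested. Their summed level overlapped between groups, at 447 to 516 CPM in SD and 443 to 570 CPM in SHAM rats, and the most abundant of them alone had 123 CPM. This set was noticed in these data, and near-identical copies would lose the fragments they share.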

How the data were processed

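Renal cortex RNA was made into libraries with a stranded total RNA kit after removal of ribosomal RNA. The authors trimmed reads with Trim Galore, mapped them to rn5 with STAR and counted fragments per Ensembl gene with featureCounts, and the deposited counts are not normalized. They were not altered before the tests used here. Rats were grouped by their condition label, with 6 SD, 7 SHAM and 6 DMT rats in one fit. Genes were filtered with filterByExpr (minimum count 10, minimum total count 15) and scaled by TMM in edgeR 4.0.16 (R 4.3.3), and SHAM was compared with SD by the quasi-likelihood test. DMT rats entered the filter, the scaling and the estimate of the spread, and with SD and SHAM rats only 14387 genes were tested and 2342 called, in place of 14664 and 2681. Standard errors were derived from the F statistic, and log2 CPM used a prior count of 2. Nothing in the labels says how rats were assigned to sequencing runs, so no batch could be examined.

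Total counts of 14502127 to 27597901 set an unscaled floor of 0.109 to 0.207 CPM at 3 counts. The fit was tested on simulated data with 100 genes changed at each size, where edgeR recovered 71% of 1.5-fold and 85% of 2-fold changes among 14589 genes. The draw used the spread estimated by the fit, alike in all groups, and far fewer changed genes than were called. Recovery in the data can therefore differ. Alternatives were the DESeq2 1.42.0 Wald test, other scalings, filters, thresholds and sets of rats. Genes named by identifier are the 2 largest increases and 2 largest decreases among called genes whose SHAM and SD rats did not overlap and whose mean reached 1 CPM in SD or SHAM rats, as no symbols could be paired. For that reason 40 gene lists (666 symbols) were not used. The comparison, lists and rules were chosen with earlier results of these data known. Further steps used scipy 1.17.1, numpy 2.4.6 and pandas 2.3.3 under Python 3.11.15, with matplotlib 3.10.9 for the plots.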

Additional observations from a re-analysis of the deposited data

Results flagged for a closer look

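In 44 groups of 6 or 7 rats (totals, genes detected, shares of the top genes, the genes and windows described, and positions of rats), Dixon's criterion set 8 values apart from the rest of the group. For normally distributed values, chance alone gives about 1 in 20 groups, here 2.2. As CPM values need not be so distributed, this number is only a rough guide. Several of these measures share genes and rats. ENSRNOG00000046170 was at 1985 CPM in SD rat 353 (others 194 to 373 CPM). ENSRNOG00000020057 was at 24.1 CPM in SD rat 357 (others 0.830 to 4.63 CPM) and at 0.0461 CPM in SHAM rat 334, which is 1 count where the other SHAM rats had 0. With all the others at 0, any count would be set apart. The higher genes of the chromosome 14 window summed to 32.7 CPM in SD rat 356 (others 7.90 to 17.1 CPM) and to 141 CPM in SHAM rat 333 (others 35.0 to 75.4 CPM). The 4 higher genes of the chromosome 1 window from 100000001 summed to 39.9 CPM in SD rat 353 (others 24.4 to 27.2 CPM). The 8 lower genes of the chromosome 1 window from 196000001 summed to 8378 CPM in SD rat 352 (others 7077 to 7186 CPM). The single-exon genes of shared length summed to 570 CPM in SHAM rat 311 (others 443 to 486 CPM). The causes were not tested.

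The SHAM libraries of rats 343 and 348 took no part in the comparison. Summed to 222947 counts over the genes tested, they were scaled to the other rats by the genes that were not called, and placed by the 354 called genes with at least 100 CPM in both groups. Of these genes, 84.2% lay on the SHAM side of the midpoint. The 7 SHAM rats that set the means had 51.1% to 98.6%, and the SD rats 0.565% to 26.8%.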

How the results depend on the processing

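The number of called genes depended most on the fold-change threshold. With no threshold 5131 genes were called (2500 higher, 2631 lower), with glmTreat, which tests against 1.3-fold, 810 (441 higher, 369 lower), and with a fold-change of at least 2, 628 (334 higher, 294 lower). The excess of higher genes was absent with no threshold. Every other setting stayed within 1.5 times of the main counts, with 2322 genes (at least 10 counts in every library) to 2850 genes (at least 1 count), and 2780 by DESeq2. With all libraries thinned to 14502127 counts 2513 genes were called, 2381 of them among the 2681. Upper-quartile factors gave 1674 higher and 1049 lower genes. Leaving out each rat in turn gave 2198 to 3070 called genes, 1188 to 1737 higher and 1010 to 1351 lower, and pseudo-F ratios from 5.92 to 7.95. Each of these ratios had the smallest exact p-value its number of rats allows. For the 4 genes named by identifier, all 97 combinations of gene and alternative in which the gene was tested kept direction and call. This was largely given in advance, as these genes were chosen for the largest changes among calls without overlap. The filter of at least 10 counts in every library removed all of them but ENSRNOG00000046170. The alternatives with no threshold and with at least 2-fold reuse the main fit. Log2 fold-changes ranged from -10.14 to -7.78 for ENSRNOG00000020057, from -6.07 to -4.92 for ENSRNOG00000046170, from 5.10 to 5.88 for ENSRNOG00000015666 and from 3.65 to 4.39 for ENSRNOG00000042788. The alternatives planned for gene lists were not run, since no identifier could be paired with a symbol. No paired analysis was possible because the rat numbers are not shared between groups.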
